A study of Mus musculus with 19 samples.

Results

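RNA levels in colon tumours of mice with 1 deleted allele of Apc and a deletion of both alleles of Tgif1 and of Tgif2 were compared with those of wild-type mouse colon. The comparison takes 12 of the 19 libraries of the study, chosen by their labels: 7 single tumours of 7 mice (3 female, 4 male) and colon tissue of 5 wild-type mice (3 female, 2 male), all 12 weeks old. The other 7 libraries are tumours of mice with the same deletion of 1 Apc allele and no Tgif deletion, called Apc tumours. They entered the statistical fit and are used in 1 direct comparison at the end. The deletions were made with Villin-Cre, a recombinase expressed from an intestinal epithelial promoter, so the stroma, blood and muscle cells of a tumour kept intact genes. The wild-type mice carried none of the deletions, and their tissue is labelled normal colon with no layer named, not the mucosa beside a tumour. Tumours labelled Apc/Tgif therefore differ from it in tissue, in the Apc deletion and in the Tgif deletions at once, and these cannot be told apart here. Of 32694 genes in the deposited table, 18445 reached a normalized count of 10 in at least 5 of the 19 libraries and were tested. A normalized count is read here as a gene's read count, not always whole, divided by a factor per library. The filter kept 379 genes that reached 10 in exactly 5 libraries (median of their mean levels 8.35 normalized counts) and left out 267 genes that reached it in 4 (median 6.48). A gene can meet it through the tumours alone.

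Apc is part of the complex that marks beta-catenin for destruction, and when it is lost beta-catenin enters the nucleus and switches on Wnt target genes through the Tcf/Lef DNA-binding factors. In the healthy colon that programme is confined to the crypt base, where stem cells divide, and cells that move up the crypt become colonocytes, mucus-producing goblet cells, hormone-producing enteroendocrine cells or tuft cells. Tgif1 and Tgif2 are related homeodomain repressors that bind DNA directly or through Smad proteins, the transcription factors of TGF-beta signalling, and so limit the response to that signal.

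The library totals lay between 34417808 and 44732717 normalized counts, or about 28800000 to 44900000 reads when divided by the value of 1 read in each library. On the first principal component, which held 67.6% of variance, the tumours (74.56 to 96.15) lay apart from wild-type colon (-122.58 to -115.05). On the second, which held 9.03%, Apc/Tgif tumour replicate 2 lay at -101.81, the other 2 female tumours at -17.87 and -18.62, and the 4 male tumours at 31.49 to 40.7. Rn45s, the ribosomal RNA precursor, made up 9.35% of Apc/Tgif tumour replicate 5, 3.5% of wild-type replicate 4 and 2.93% of wild-type replicate 2, and between 0.171% and 0.376% of the other 9. Xist and Ddx3y matched the sex label in all 12 libraries. Epcam, the epithelial adhesion molecule, had 61177, 55214, 66027, 80047 and 67353 normalized counts in wild-type replicates 1 to 5 (replicates 1 to 3 are female, an order kept below) and 60744 to 75052 with a median of 66872 in the 7 tumours. The groups overlapped, and no difference in Epcam was detected (log2 difference 0.01, SE 0.111, limma adjusted p = 0.95). Over 19 tested pan-epithelial genes, 2 were called higher and 7 lower with a median log2 difference of -0.30, and with quantile normalization the count turned to 3 higher and 2 lower, as it did in females alone.

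**Figure D1:**
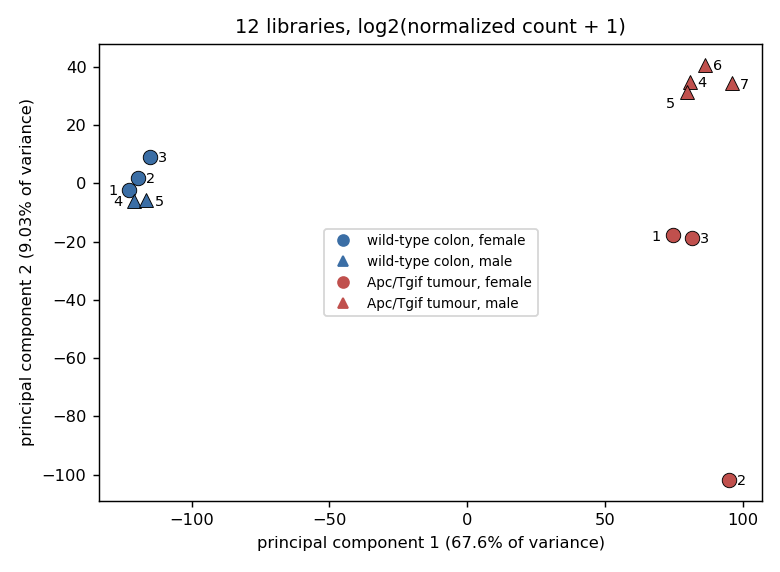
The 12 libraries on the first (x axis) and second (y axis) principal components of log2(normalized count + 1) over 18445 genes, in arbitrary units, with the share of variance on each axis. Circles are females, triangles males, blue wild-type colon and red Apc/Tgif tumours, and numbers are replicates. Tumour replicate 2, at -101.81, lies apart from the other 6 on the second component.

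The targeted genes were read first. Tgif1 (chromosome 17, 70844205 to 70853532, GRCm38) had 894, 828.8, 885, 1032 and 1181 normalized counts in wild-type colon and 316, 654, 354, 251, 313, 319 and 269.9 in tumours 1 to 7. Every tumour lay below every wild-type library, with replicate 2 the highest tumour. The fall in Tgif1 passed the test (log2 difference -1.45, SE 0.183, limma adjusted p = 1.96e-06). Tgif2 had 141, 234, 97.0, 175 and 158 normalized counts in wild-type colon and 2141 to 3107 with a median of 2696 in the tumours, so the total of this gene went against the label. Which part of Tgif2 was deleted is not stated in the labels. Transcripts that kept the rest of the gene would still add to the total, which therefore does not check the deletion. Whether such transcripts account for the higher total was not tested. Apc stood at 5771 ± 1339 normalized counts in the 5 wild-type libraries (mean ± SD) and 7272 ± 1186 in the 7 tumours, a difference that lay at the threshold (log2 difference 0.37, SE 0.154, limma adjusted p = 0.0501). Whether the tumours kept the undeleted allele of Apc was not tested.

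In the limma test of log2(normalized count + 1), with all 19 libraries, a term for sex and Benjamini-Hochberg adjustment, 4576 genes (24.8% of those tested) were higher and 4708 (25.5%) lower in the tumours, together 50.3%, at an adjusted p under 0.05, called higher or lower below. The median log2 difference over all tested genes was 0.0016. Of the called genes, 1996 were higher and 2912 lower by over 2-fold, 878 and 1449 by over 4-fold, and 262 and 381 by over 16-fold. The lowest tumour lay above the highest wild-type library for 2609 genes (14.1%), and the highest tumour lay below the lowest wild-type library for 3041 genes (16.5%). Scaling each library to the same total gave 5810 higher and 3843 lower, and scaling to the pan-epithelial genes gave 6028 and 3333, as these moved the median log2 difference of all genes by 0.152 and 0.238. Gene lists are described below by how many of their tested members were called, to be read against the 24.8% and 25.5% above. The lists and their members were chosen with earlier results of these data known, so a count above these shares is not independent support. In whole tissue, fewer cells of a type and less RNA per cell of that type cannot be told apart. Levels are given as mean ± SD (n = 5 wild-type and n = 7 tumour libraries), and log2 differences are tumour minus wild-type.

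Inhibitors that Wnt signalling itself induces were among the genes that rose most. Of 17 tested feedback inhibitors 11 were higher and 4 lower, with a median log2 difference of 2.00. Notum (chromosome 11, 120653788 to 120661193), an enzyme that inactivates Wnt proteins by removing their lipid, had 6.50, 9.37, 5.55, 22.2 and 5.19 normalized counts in wild-type colon and 4161 to 11566 with a median of 6279 in the tumours. The 7 tumours lay above the 5 wild-type libraries by a wide margin (log2 difference 9.42, SE 0.366, limma adjusted p = 5.15e-13). Wif1, a secreted Wnt-binding protein, had 75.9, 70.3, 76.7, 90.5 and 73.3 and then 6177 to 13468 with a median of 9505, with no overlap (log2 difference 6.91, SE 0.332, limma adjusted p = 8.75e-12). Dkk2, which binds the Wnt co-receptors, went from 51.0 ± 14.4 to 2759 ± 1209 (log2 difference 5.72), and Rnf43, a ubiquitin ligase that removes Wnt receptors from the membrane, went from 1566 ± 417 to 13715 ± 2638 (log2 difference 3.18). Axin2, a scaffold of the beta-catenin destruction complex and a common readout of Wnt activity, went from 1406 ± 181 to 15377 ± 4944 (log2 difference 3.42). Not all inhibitors moved this way. Sfrp5, a secreted Wnt antagonist, fell from 77.2 ± 18.0 to 8.74 ± 3.12 (log2 difference -3.06), and Nkd2, Sfrp1 and Trabd2b were also lower.

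The nuclear end of the pathway moved in both directions as well. Of 21 tested nuclear Wnt targets and Tcf/Lef factors, 15 were higher and 4 lower (median 1.70). Sox4, a progenitor transcription factor, had 1219, 977, 997, 800.4 and 837 normalized counts in wild-type colon and 10487 to 12530.1 with a median of 10680.3 in the tumours. The tumour values lay close together, far above wild-type colon (log2 difference 3.56, SE 0.107, limma adjusted p = 1.36e-14). Tcf7, which encodes a Tcf/Lef factor itself induced by Wnt, went from 328 ± 34.4 to 2609.6 ± 540.2 (log2 difference 2.99), and Ets2 went from 10108 ± 886 to 32745 ± 3679.9 (log2 difference 1.70). Tcf7l2, the main Tcf/Lef factor of the normal intestinal epithelium, went the other way, from 4004 ± 403 to 1797 ± 162 (log2 difference -1.19), and Tcf7l1, Cdx1 and Nrarp were the other members that fell.

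Promoter sequences were examined for the letters that Tcf/Lef factors prefer, CTTTGAT, on either strand, in the 250 bases before and 50 bases after the start of each gene (RefSeq, GRCm38.p6). Of 12378 tested genes with such a window, 329 (2.66%) held CTTTGAT. The share was 3.19% of 3259 genes called higher, 2.19% of 3288 called lower and 2.62% of 5831 not called. Among genes called higher by over 16-fold it was 16 of 161 (9.94%), and 12 of 157 (7.64%) without the 4 alpha-defensin genes, a family of similar sequence. Among those called lower by over 16-fold it was 5 of 253 (1.98%). The letters TGTCA, which Tgif proteins prefer, stood in 37.1% of all windows, 37.6% of those called higher, 38.7% of those called lower and 35.9% of those not called. Its share was 74 of 161 (46%) for genes called higher by over 16-fold, 47.1% of these without the alpha-defensins, and 40.7% for genes called lower by over 16-fold. These are matches of letters, not measured binding. The 3 promoters below hold CTTTGAT and are printed because the genes behind them are among those that rose most: Sp5, a Wnt-induced zinc finger factor (chr2:70474673-70474922 on the plus strand), and the alpha-defensins Defa20 (chr8:21509008-21509257 on the plus strand) and Defa22 (chr8:21162027-21162276 on the plus strand). The 250 bases before the start are given 5′ to 3′ on the gene's strand, with CTTTGAT or its reverse complement in capitals.
Sp5: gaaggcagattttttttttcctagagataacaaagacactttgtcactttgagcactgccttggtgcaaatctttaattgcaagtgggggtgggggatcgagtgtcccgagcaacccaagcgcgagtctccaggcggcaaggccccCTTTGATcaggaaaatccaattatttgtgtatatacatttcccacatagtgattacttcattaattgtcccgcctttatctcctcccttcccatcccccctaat
Defa20: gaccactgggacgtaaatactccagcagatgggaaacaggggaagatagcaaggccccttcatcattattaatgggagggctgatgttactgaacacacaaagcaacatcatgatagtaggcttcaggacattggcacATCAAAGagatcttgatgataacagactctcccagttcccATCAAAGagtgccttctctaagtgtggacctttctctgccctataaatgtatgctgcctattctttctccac
Defa22: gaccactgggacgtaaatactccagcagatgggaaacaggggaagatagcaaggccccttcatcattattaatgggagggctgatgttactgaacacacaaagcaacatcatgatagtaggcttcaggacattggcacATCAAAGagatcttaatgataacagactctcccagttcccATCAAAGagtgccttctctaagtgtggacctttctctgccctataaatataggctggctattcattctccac
In Sp5 the match begins 104 bases before the start. In both defensins matches begin 112 and 72 bases before it, and the 2 windows share 245 of 250 bases. Sp5 itself had 6.31, 6.85, 2.61, 5.75 and 3.42 normalized counts in wild-type colon and 373 to 1439.6 with a median of 492 in the tumours. All tumours lay above all wild-type libraries, and replicate 2 was the highest (log2 difference 6.67, SE 0.396, limma adjusted p = 1.30e-10).

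Genes of the crypt base rose with the Wnt targets. Of 22 tested crypt base and stem cell genes 15 were higher and 3 lower (median 1.19). Lgr5, the receptor that marks cycling intestinal stem cells, had 626, 528, 393, 265 and 379 normalized counts in wild-type colon and 2772 to 8209 with a median of 3669.9 in the tumours, again with no overlap (log2 difference 3.31, SE 0.311, limma adjusted p = 5.28e-08). Ephb2, which positions cells along the crypt axis, went from 2811 ± 341 to 7299 ± 523 (log2 difference 1.39). Hopx, a stem cell homeodomain protein, went from 1428 ± 178 to 5737 ± 718 (log2 difference 2.01), and Slc12a2, the chloride cotransporter of crypt cells, went from 13429 ± 3569 to 45002 ± 8287 (log2 difference 1.82). Aqp4, a basolateral water channel, was lower instead, from 18609 ± 6788 to 3135 ± 1598 (log2 difference -2.74).

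A second set of genes, which mark the foetal gut and regenerating epithelium, was higher too. Of 28 tested members 17 were higher and 1 lower (median 1.09). Spp1, which encodes osteopontin, went from 6.07 ± 3.54 to 1275 ± 1504 (log2 difference 7.16), Phlda1 went from 1272 ± 366 to 6939 ± 2005 (log2 difference 2.38), and the annexin Anxa3, the member that fell, went from 8682 ± 1108 to 5311 ± 749 (log2 difference -0.71). Keratins, the filament proteins of epithelial cells, were partly exchanged: of 17 tested 9 were higher and 3 lower (median 1.51). Krt15, a basal-type keratin, had 20.2, 24.0, 18.3, 30.2 and 27.3 normalized counts in wild-type colon and 8145 to 74978 with a median of 23092 in the tumours. Its tumour values spanned from 8145 in replicate 2 to 74978 in replicate 3, all above wild-type colon (log2 difference 9.92, SE 0.694, limma adjusted p = 1.38e-09). Krt23 went from 327 ± 81.4 to 8211 ± 2248 (log2 difference 4.69) and Krt7 from 4653 ± 705 to 22621 ± 2673 (log2 difference 2.27), while Krt20, the keratin of mature surface cells, went from 35298 ± 10214 to 2074 ± 1384 (log2 difference -4.34). Krt8, Krt18 and Krt19 are the keratins of all intestinal epithelium. Krt18 rose from 13291 ± 1458 to 33486 ± 7759.7 (log2 difference 1.32), whereas Krt8 and Krt19 were lower, with log2 differences of -0.72 and -0.61 that turned to 0.27 and 0.0097 with quantile normalization. Of 23 claudins and other tight junction genes 7 were higher, among them Cldn4 from 1525 ± 451 to 19429.5 ± 6095 (log2 difference 3.64), and 4 lower, among them Cldn8 from 3657 ± 2111 to 837 ± 214 (log2 difference -1.97). In males alone that count was 6 and 7.

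Paneth cells, which secrete antimicrobial peptides at the base of small intestinal crypts, are absent from the normal mouse colon. Of 21 Paneth cell and alpha-defensin genes 19 were in the table, and all 19 passed the filter, some through the tumours alone. Of these 15 were higher and 2 lower, with a median log2 difference of 7.48, a fitted value in which 5 members listed at 0 in all 5 wild-type libraries take part. Mmp7 (chromosome 9, 7692090 to 7699585), the protease that activates alpha-defensins, had 5.36, 8.49, 5.55, 3.05 and 8.47 normalized counts in wild-type colon and 13808 to 87270.1 with a median of 19553 in the tumours. The lowest tumour lay far above the highest wild-type library, and replicate 2 was highest (log2 difference 11.92, SE 0.469, limma adjusted p = 6.42e-13). Its window held 1 CTTTGAT, in the 50 bases after the start. Defa20 was listed at 0 in every wild-type library and had 2676, 5996, 1574, 847, 1127, 203 and 526.02 normalized counts in tumours 1 to 7. The 3 females lay above all 4 males, and the tumours differed among themselves by far more than for Mmp7 (limma adjusted p = 8.98e-10). Defa17 and Habp2, a plasma protease, were listed at 0 in wild-type colon as well and reached 2480.4 ± 1838 and 633 ± 496. Defensin genes are near-identical copies, so how reads were divided among them is uncertain. Ang4, an antimicrobial ribonuclease, went against the list, from 7550.1 ± 5893 to 1201 ± 869 (log2 difference -2.72), with overlapping groups. Other epithelial antimicrobials were split, with 9 of 19 higher and 9 lower. Reg3g, a bactericidal lectin, went from 22.1 ± 15.6 to 2420.3 ± 3212 (log2 difference 6.25), Lcn2, an iron-sequestering protein, from 46.7 ± 22.1 to 4592 ± 2893 (log2 difference 6.54), and Saa3 from 16.4 ± 5.77 to 1290.5 ± 719 (log2 difference 6.13). Saa1, an acute-phase protein made by colonocytes, went from 38169 ± 13972 to 1777 ± 878 (log2 difference -4.58), Zg16, a goblet cell lectin, from 70388 ± 26930.3 to 2406 ± 2376 (log2 difference -5.60), and Mptx1 from 102325 ± 35468 to 230.4 ± 98.2 (log2 difference -8.74).

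**Figure D2:**
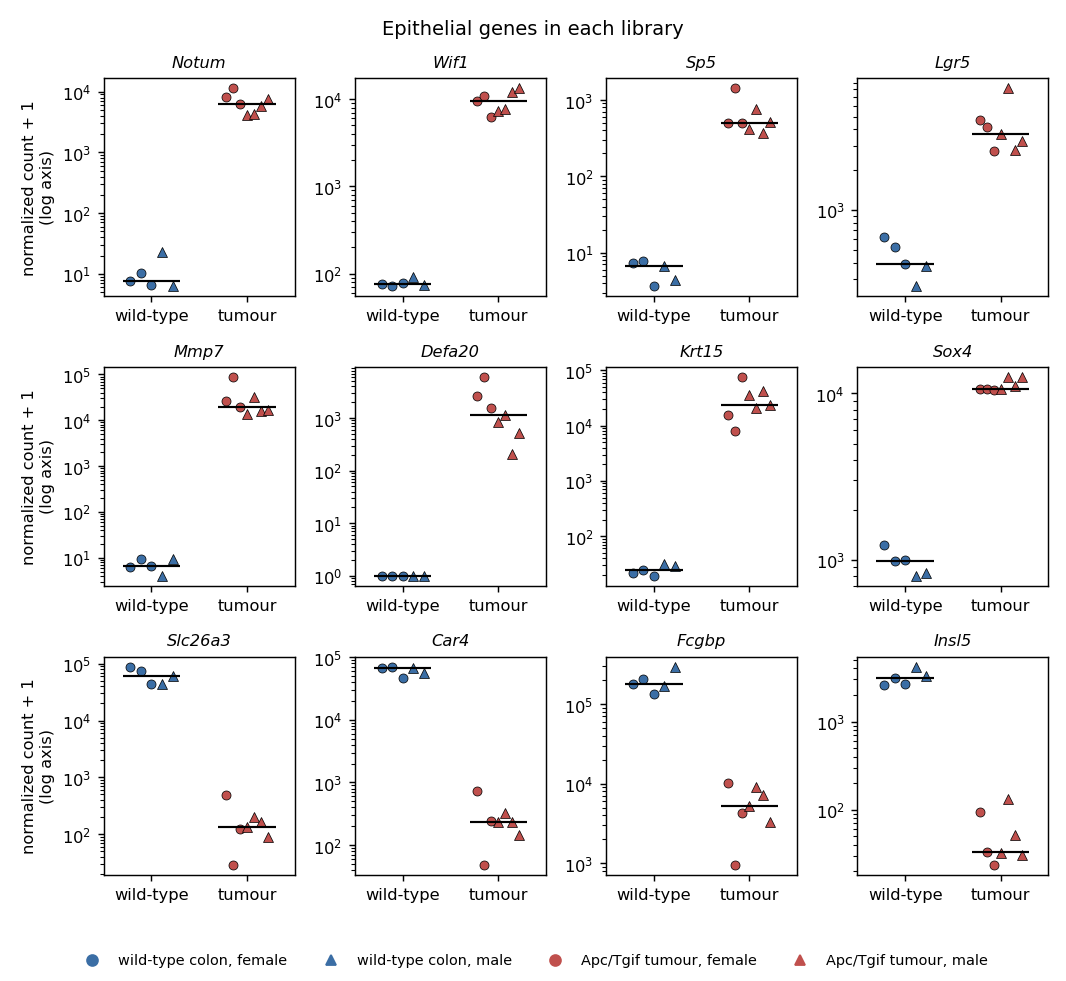
Normalized count + 1 on a log axis (y) in each library of wild-type colon (blue, n = 5) and Apc/Tgif tumours (red, n = 7) for 12 genes; circles are females, triangles males, and black lines the group medians. Wnt, crypt and Paneth genes lie above wild-type colon in all 7 tumours (Notum 4161 to 11566), and the markers of mature cells in the bottom row lie below it.

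Genes of the mature absorptive colonocyte fell. Of 34 tested 29 were lower and 2 higher (median -3.17). Slc26a3, the chloride and bicarbonate exchanger of the surface, had 89473, 73389, 44348, 44947 and 60686 normalized counts in wild-type colon and 495, 27.5, 121, 132, 202, 161 and 88.8 in tumours 1 to 7. Tumour replicate 1 was the highest and replicate 2 the lowest of the 7, and none reached wild-type levels (log2 difference -8.97, SE 0.609, limma adjusted p = 9.26e-10). Car4, a membrane-bound carbonic anhydrase, had 67209, 70617, 45937, 65711 and 56341 and then 47.0 to 719.6 with a median of 237, again without overlap (log2 difference -8.18, SE 0.517, limma adjusted p = 3.50e-10). Prdx6, an antioxidant enzyme, went from 132205 ± 16606 to 8819.9 ± 2659.6 (log2 difference -4.0038), and Ggh from 15917 ± 1103 to 1417 ± 399 (log2 difference -3.58). Guca2b, which encodes uroguanylin, was higher, from 246 ± 58.5 to 619 ± 207 (log2 difference 1.25). Of 38 transporters 28 were lower and 3 higher (median -2.43). Slc20a1, a phosphate importer, went from 25737 ± 7989.7 to 1615 ± 330.5 (log2 difference -3.94), Slc16a1, which imports butyrate, from 14032 ± 1815 to 2324 ± 349.9 (log2 difference -2.64), and Slc37a2 from 13654 ± 3833 to 285 ± 99.9 (log2 difference -5.66). Slc16a3, the lactate exporter, rose from 289 ± 94.1 to 3042 ± 459 (log2 difference 3.42). None of 14 carbonic anhydrases was higher and 10 were lower (median -1.75), or 6 in males alone. Car1 differed among the tumours, at 3200.1, 667, 7612, 29223, 1913, 12378 and 1952 normalized counts in tumours 1 to 7 against 27124, 19555, 54574, 27102 and 26882 in wild-type colon, and tumour 4 lay within the wild-type range (log2 difference -2.95, SE 0.694, limma adjusted p = 0.00153). Small intestinal absorption genes that were measurable in colon were lower in 18 of 22 cases and higher in none (median -2.11), among them Apob, the scaffold of lipoproteins, from 5537 ± 2458 to 87.7 ± 96.4 (log2 difference -6.74), and the peptide transporter Slc15a1, from 7670.1 ± 1621 to 279 ± 135 (log2 difference -5.05).

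Goblet cell genes fell as a group, with 22 of 25 lower and 1 higher (median -2.81). Fcgbp, a structural protein of mucus, had 176553, 204949.7, 135333, 170382 and 295336 normalized counts in wild-type colon and 952 to 10125 with a median of 5189.5 in the tumours. Replicate 2, at 952, was the lowest tumour (log2 difference -5.49, SE 0.447, limma adjusted p = 8.93e-09). Muc2, the gel-forming mucin of the colon, had 74642, 80492, 77185, 65122 and 105836 and then 29004, 6418, 6521, 6819, 20709.7, 11156 and 6491 in tumours 1 to 7. Tumours 1 and 5 kept more Muc2 than the others, and no tumour reached wild-type colon (log2 difference -3.02, SE 0.493, limma adjusted p = 4.26e-05). Klk1 went from 37711 ± 4778 to 1653 ± 985 (log2 difference -4.79), Tff3, the trefoil peptide of mucus, from 26087 ± 7440.1 to 2970.3 ± 1787 (log2 difference -3.32), and Creb3l1, a secretory pathway transcription factor, from 9564 ± 1006 to 1549 ± 407 (log2 difference -2.70). Atoh1, the factor that commits cells to the secretory fate, went from 2024 ± 378 to 299.9 ± 157 (log2 difference -2.95). Foxa3 alone rose, from 1274 ± 163 to 2602 ± 761 (log2 difference 0.91). Enzymes that attach and extend mucin sugars were lower in 17 of 32 cases and higher in 3 (median -1.24), such as B3gnt7 from 37968 ± 3468 to 1423 ± 833 (log2 difference -4.96) and the sialyltransferase St6galnac4 from 3032 ± 324 to 582 ± 192 (log2 difference -2.44), while Gcnt4 went from 95.1 ± 28.0 to 509 ± 102 (log2 difference 2.43). Chst5, a sulphotransferase, was listed at 0 in all 7 tumours and at 20.9, 27.9, 10.7, 14.9 and 13.9 normalized counts in wild-type colon.

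Of 27 enteroendocrine genes 23 were lower and 2 higher (median -3.6000). Insl5, a hormone of distal colon endocrine cells, had 2612, 3108, 2659.6, 4199 and 3267 normalized counts in wild-type colon and 22.6 to 131 with a median of 32.0 in the tumours, with no overlap (log2 difference -6.12, SE 0.512, limma adjusted p = 1.13e-08). Cpe, a prohormone-processing enzyme, went from 4462 ± 891 to 317 ± 158 (log2 difference -3.87), and the granule proteins Scg3 and Scg2 were lower, with log2 differences of -5.36 and -5.39. Neurons share several of these granule genes. Neuronal genes, given further on, were lower too, and their part in this count was not tested. Nts, which encodes neurotensin, rose from 6.80 ± 3.68 to 42.6 ± 9.85 (log2 difference 2.55). Tuft cell genes, which mark the chemosensory cells of the epithelium, were lower in 12 of 20 cases. Avil, an actin-binding protein, was the member that rose, from 230.1 ± 37.998 to 2981 ± 1089 (log2 difference 3.64), while Gnat3, a taste-signalling G protein, had 0 to 2.68 with a median of 0 normalized counts against 51.7, 84.5, 43.5, 28.7 and 36.5 in wild-type colon. The taste gene was near 0 in every tumour (log2 difference -5.08, SE 0.469, limma adjusted p = 3.78e-08). Notch signalling sets the balance of secretory and absorptive cells, and 10 of 25 Notch genes were higher and 8 lower (median 0.26). Dll4 and Jag2, which encode ligands, went from 513 ± 83.6 to 1615 ± 235 (log2 difference 1.66) and from 167 ± 29.5 to 1159 ± 599 (log2 difference 2.71), and Hes6 from 2247 ± 467 to 11260.0 ± 2249.8 (log2 difference 2.30). With weights for library quality the count turned to 10 higher and 11 lower.

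**Figure D3:**
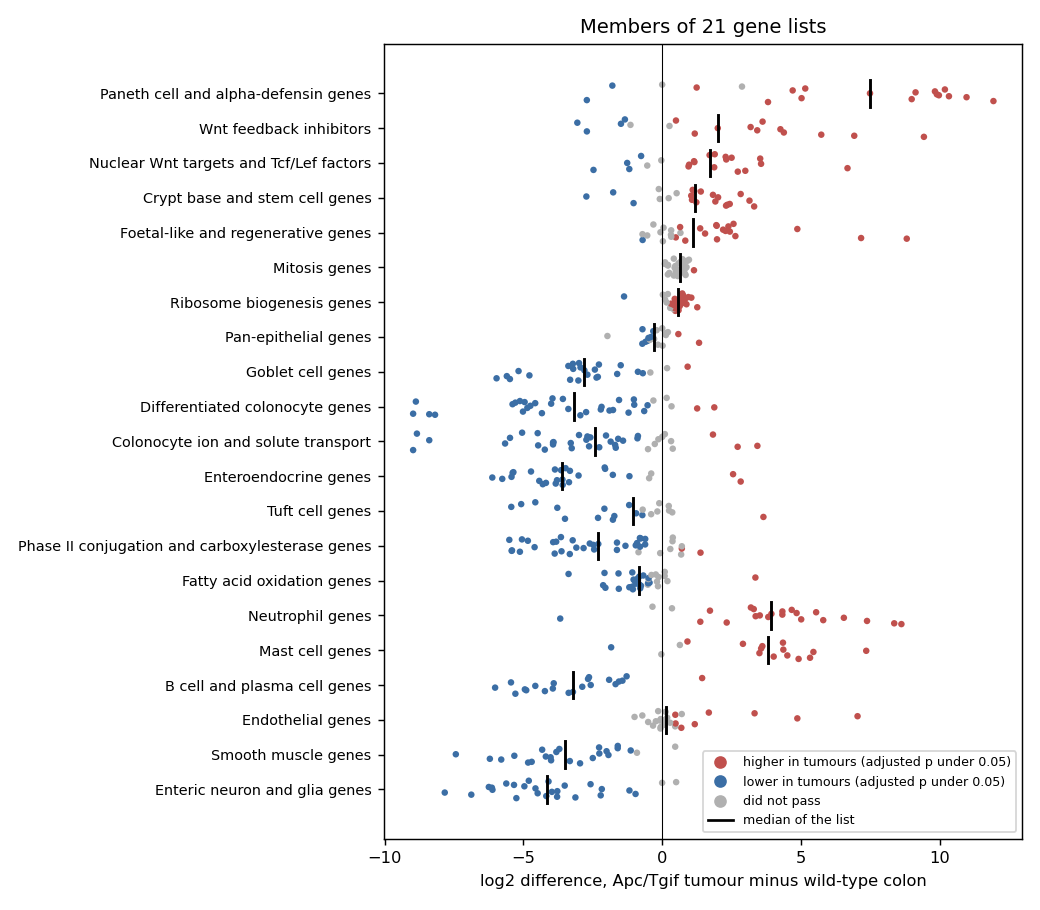
Log2 difference of each tested member (points, x axis) in 21 gene lists (rows), tumour minus wild-type colon, from limma on log2(normalized count + 1). Red and blue points were called higher and lower, grey points did not pass, and black bars are list medians, from -4.14 for enteric neuron genes to 7.48 for Paneth genes; 1 of 34 mitosis genes was called.

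Transcription factors that set intestinal identity changed in both directions, with 6 of 31 higher and 12 lower (median -0.51). Onecut2, a factor of liver and proximal gut, had 17.7, 10.3, 8.70, 10.1 and 17.1 normalized counts in wild-type colon and 4826 to 11034 with a median of 8827 in the tumours. All 7 tumours lay far above the near-absent level of wild-type colon (log2 difference 9.31, SE 0.393, limma adjusted p = 1.60e-12). Gata5 went from 59.7 ± 21.2 to 1925 ± 669 (log2 difference 5.03) and Prdm1, a factor of the foetal gut, from 268 ± 38.2 to 1331 ± 409 (log2 difference 2.27), whereas Nr5a2, a nuclear receptor of crypt and metabolic genes, went from 1910.3 ± 377 to 103 ± 55.6 (log2 difference -4.29) and Ppara, the lipid-sensing receptor, from 668 ± 165 to 66.4 ± 30.8 (log2 difference -3.38). Hox genes mark position along the gut, and of 11 distal colon Hox genes 2 were higher and 2 lower. That count was 2 and 0 with equal totals, 3 and 0 with pan-epithelial scaling and 3 and 3 with only the 12 libraries fitted. Hoxa9 had 1369, 1279, 1200.2, 1276 and 1190.3 normalized counts in wild-type colon and 5577 to 7638 with a median of 6130.3 in the tumours, and Hoxa10 went from 1906 ± 151 to 3993 ± 545 (log2 difference 1.07). For Hoxa9 no tumour came near the wild-type range (log2 difference 2.35, SE 0.103, limma adjusted p = 2.26e-12). Hoxd13, the most distal Hoxd gene, had 8441, 6282, 5463, 3548 and 6479.7 normalized counts in wild-type colon and 83.7, 234, 11355, 10491, 17.7, 10089.8 and 239 in tumours 1 to 7. Tumours 3, 4 and 6 lay above wild-type colon and the other 4 far below it, and the difference in means did not pass (log2 difference -3.06, SE 2.15, limma adjusted p = 0.251). Hoxd10 followed the same tumours, at 13.04, 16.1, 613, 453, 11.5, 406 and 9.35 normalized counts against 672, 449.9, 438, 308 and 502 in wild-type colon. The low and high tumours include both sexes. Hoxb13, a marker of the distal colon, lay below wild-type colon in all 7 tumours (6540.4 to 8720.3 with a median of 7739 against 13937, 13466, 13747, 16616 and 15739), and its difference did not pass the test that shares 1 estimate of the spread with the Apc tumours (log2 difference -0.95, SE 0.457, limma adjusted p = 0.094).

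**Figure D4:**
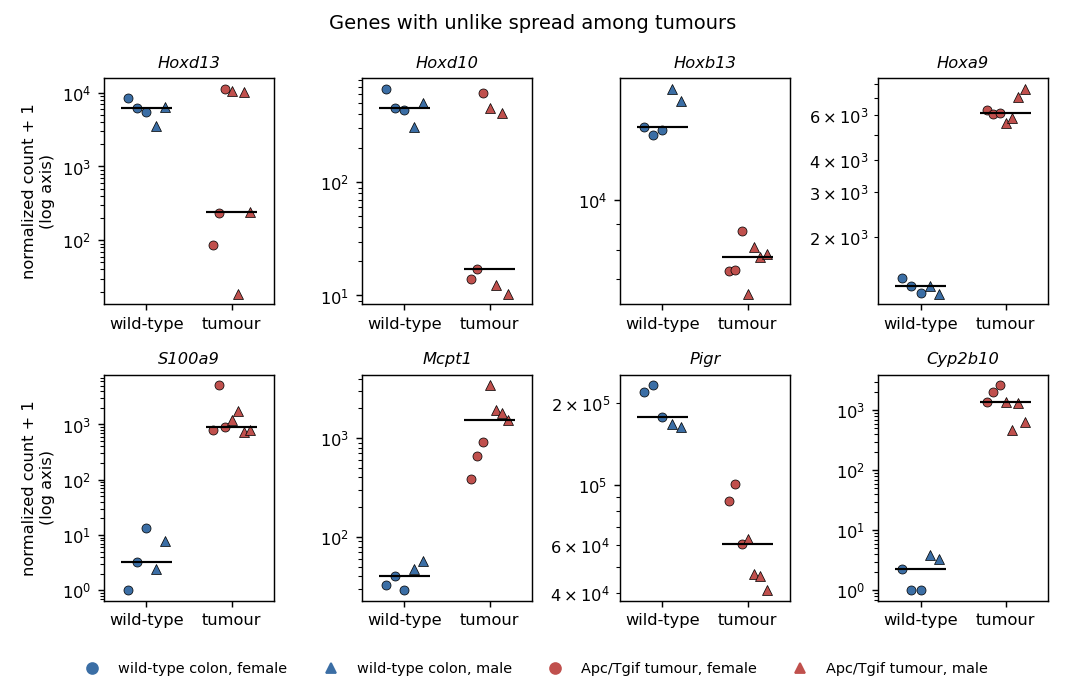
Normalized count + 1 on a log axis (y) for 8 genes in wild-type colon (blue, n = 5) and Apc/Tgif tumours (red, n = 7); circles are females, triangles males, black lines the medians. Hoxd13 and Hoxd10 split the tumours into 3 high (Hoxd13 10090 to 11355) and 4 low, Hoxa9 does not, and S100a9 is highest in replicate 2 (5134).

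Which cell division genes were called depended on single libraries. Of 35 DNA replication genes 19 were higher and none lower (median 0.55), with Prim2 and Rfc3, a primase and a clamp loader subunit, going from 322 ± 29.2 to 736 ± 132 (log2 difference 1.18) and from 584 ± 43.3 to 1175 ± 231 (log2 difference 1.02). That count was 10 without the 3 libraries highest in Rn45s, 12 without tumour replicate 3, 8 in females alone and 14 in males alone. Of 34 mitosis genes only Mad2l1, a spindle checkpoint protein, passed, from 912 ± 208 to 2132 ± 759 (log2 difference 1.14), and the list median was 0.63. The count was 7 with equal library totals or without wild-type replicate 3, and 2 without tumour replicate 1. Without tumour replicate 2, 32 of the 34 were called higher, and their median was 1.03. Mki67, a protein of all cycling cells, had 8994, 9523, 15359, 5412 and 7274 normalized counts in wild-type colon and 9173, 2032, 9347, 13607, 11737, 14634 and 15891 in tumours 1 to 7. Tumour 2 lay below every wild-type library and wild-type replicate 3 above 6 of the 7 tumours, so the groups overlapped (log2 difference 0.09, SE 0.396, limma adjusted p = 0.867). Top2a, which untangles DNA, had 7945, 1671, 9149, 13869.9, 11778, 14556 and 14659 in tumours 1 to 7 and 4742, 5205, 9249, 4328 and 4272 in wild-type colon, and Cdk1, the kinase that starts mitosis, had 1479, 424, 1942, 2266, 3413, 2937 and 2797 and 1045, 1249, 2004, 1165 and 996. In both, tumour 2 alone lay below every wild-type library. The mean log2 level over the 34 genes was 8.67 in tumour 2, 10.46 to 11.49 in the other 6 and 9.79 to 10.75 in wild-type colon. The same tumour had the highest mean log2 level of neutrophil genes, 9.54 against 7.25 to 8.51, and the lowest of goblet cell genes, 9.15 against 9.21 to 10.77. What part these play in its low mitosis level was not tested. In males alone 33 of the 34 were called higher and in females alone, where 1 of 3 tumours is replicate 2, none was.

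**Figure D5:**
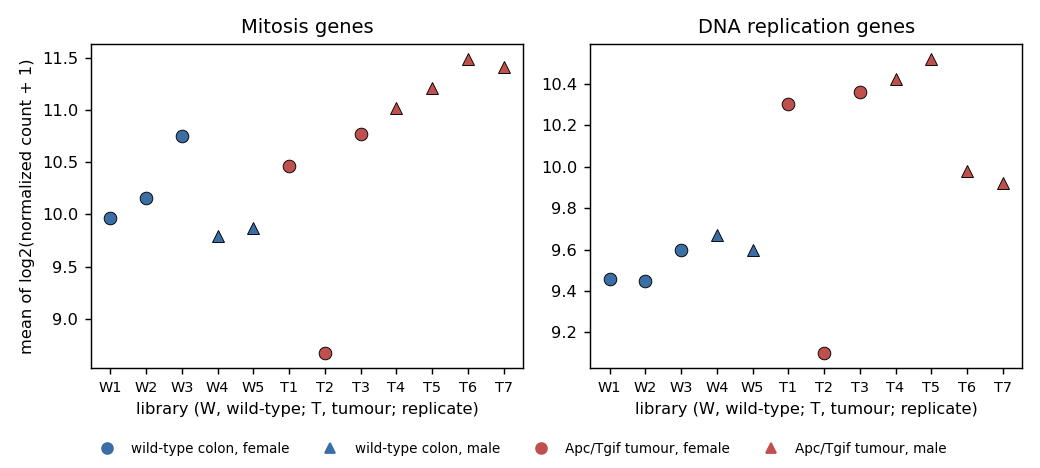
Mean log2(normalized count + 1) (y axis) of 34 mitosis genes (left) and 35 DNA replication genes (right) in each library (x axis; W, wild-type colon; T, Apc/Tgif tumour; numbers are replicates). Circles are females and triangles males. T2 is the lowest library for both lists (mitosis 8.67), and the other 6 tumours lie between 10.46 and 11.49 for mitosis.

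Of 30 ribosome biogenesis genes 23 were higher and 1 lower (median 0.57), 26 were higher without tumour 2, and 13 in males alone. The helicase Ddx21 went from 4226 ± 613 to 8376 ± 1013 (log2 difference 1.04) and Pes1 from 2025 ± 134 to 3675 ± 572 (log2 difference 0.87). Utp20 was lower, from 3614 ± 503.8 to 1365 ± 259 (log2 difference -1.38). Among p53 targets and cell cycle inhibitors 9 of 22 were higher and 5 lower, or 7 and 2 in females alone. Cdkn2a, the locus of the p16 and p19 tumour suppressors, had 0, 1.23, 1.87, 1.55 and 5.46 normalized counts in wild-type colon and 221, 72.2, 165, 19.7, 51.9, 59.8 and 51.0 in tumours 1 to 7. Wild-type colon was near 0, and every tumour lay above it (log2 difference 4.82, SE 0.565, limma adjusted p = 8.11e-07). Cdkn1c went from 215 ± 31.5 to 1771 ± 744 (log2 difference 2.93) and Plk2 from 783 ± 114 to 3471 ± 453 (log2 difference 2.15), whereas Cdkn2b, the neighbour of Cdkn2a, went from 1395 ± 298 to 621 ± 164 (log2 difference -1.24).

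Genes of fatty acid oxidation, butyrate use and mitochondrial respiration were mostly lower. Which cells of the tissue account for this was not tested. Fatty acid oxidation genes were lower in 24 of 35 cases and higher in 1 (median -0.83), with the carnitine carrier Slc25a20 going from 8064 ± 1409.9 to 2024 ± 344 (log2 difference -2.05) and Acad11 from 5537 ± 536 to 1309.8 ± 264 (log2 difference -2.13). Acox2, a peroxisomal oxidase, was the one that rose, from 24.1 ± 11.1 to 275 ± 153 (log2 difference 3.35). Of 12 genes of ketone synthesis and butyrate use 9 were lower and 2 higher. Slc5a8, a butyrate importer, had 21830.3, 22005, 21905, 14174 and 15192 normalized counts in wild-type colon and 359.9 to 1419.6 with a median of 1093 in the tumours, without overlap (log2 difference -4.47, SE 0.372, limma adjusted p = 1.17e-08). Acsm3, which activates butyrate, went from 11702 ± 1582 to 1094 ± 312 (log2 difference -3.51). Tricarboxylic acid cycle genes were lower in 22 of 27 cases (median -0.47), for example citrate synthase, Cs, from 29855 ± 1667 to 14494 ± 839.8 (log2 difference -1.06), and nuclear genes of the respiratory chain in 32 of 38 (median -0.68), for example Uqcrb from 8419 ± 1104 to 3668 ± 490.3 (log2 difference -1.22). With libraries scaled to pan-epithelial genes these counts were 10 and 21, in females alone 17 and 19, and in males alone 17 and 32. Idh1, a source of cytosolic NADPH, rose from 6573 ± 410.5 to 19767 ± 3949 (log2 difference 1.56). Glycolysis and hypoxia genes were lower in 13 of 31 cases and higher in 3 (median -0.26), or 11 and 6 with pan-epithelial scaling, with the hexokinases Hk1 and Hk2 going from 9957 ± 607 to 3227 ± 443 (log2 difference -1.67) and from 12180.4 ± 2177 to 5872 ± 658 (log2 difference -1.04). Cholesterol synthesis genes were split at 7 higher and 5 lower of 24, or 9 and 0 with pan-epithelial scaling, 3 and 2 in males alone and 4 and 4 without the 3 libraries highest in Rn45s, and the balance turned to 5 and 6 without wild-type replicate 4 and to 5 and 7 without tumour replicate 3.

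Detoxifying enzymes were mostly lower as well. Of 25 cytochrome P450 genes 18 were lower and 5 higher (median -1.58). Cyp2c55 had 15872, 12522, 19356, 20215 and 12422 normalized counts in wild-type colon and 9.45 to 161 with a median of 36.3 in the tumours (log2 difference -8.88, SE 0.818, limma adjusted p = 4.20e-08). Cyp2b10, a target of the xenobiotic receptor CAR, went the other way, with 1.26, 0, 0, 2.87 and 2.28 normalized counts in wild-type colon and 464 to 2611 with a median of 1379.8 in the tumours (log2 difference 9.23, SE 0.528, limma adjusted p = 8.42e-11). Neither gene's groups overlapped, and both have close paralogs that can share reads. Of 39 conjugating enzymes and carboxylesterases 30 were lower and 2 higher (median -2.31), among them the sulphotransferase Sult1d1 from 6772 ± 1275 to 178 ± 71.4 (log2 difference -5.41), the glutathione transferase Gstm1 from 12298 ± 943 to 1819 ± 407 (log2 difference -2.84) and the carboxylesterase Ces2c from 14732 ± 2751 to 358 ± 129 (log2 difference -5.51). Ugt2b35 was higher, from 1505 ± 459 to 3618 ± 947 (log2 difference 1.37). Arginine and polyamine genes were split (8 higher and 6 lower of 25, or 5 and 5 in males alone). Otc, a urea cycle enzyme of the gut, went from 540.1 ± 151 to 6.26 ± 2.42 (log2 difference -6.26), and Slc7a1, an arginine importer, from 1357 ± 110.1 to 3094 ± 358 (log2 difference 1.21).

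Several signalling pathways other than Wnt were also examined. In the TGF-beta and activin pathway, on whose Smad proteins Tgif1 and Tgif2 act, 15 of 31 genes were higher and 8 lower (median 0.27). That count was 14 and 4 in females alone, 12 and 8 in males alone and 15 and 9 without tumour replicate 2. Among ligands, Inhbb, an activin subunit, went from 65.0 ± 14.2 to 995 ± 728 (log2 difference 3.73). Smad3, the transducer, went from 2026 ± 179 to 4369 ± 487 (log2 difference 1.11). Pmepa1, a target and inhibitor of the pathway, had 1964, 1820.0, 2500.1, 3068 and 2137 normalized counts in wild-type colon and 6325 to 14333 with a median of 9937 in the tumours, above it throughout (log2 difference 2.06, SE 0.163, limma adjusted p = 5.76e-09). Of 27 BMP genes 9 were higher and 7 lower. The antagonist Chrdl1 went from 954 ± 288 to 52.1 ± 20.5 (log2 difference -4.19), the ligand Bmp3 from 1105 ± 255 to 173 ± 49.4 (log2 difference -2.73), and the target Id4 from 1177 ± 153 to 87.3 ± 30.0 (log2 difference -3.84). In females alone the count of BMP genes was 7 higher and 8 lower, and in males alone 6 and 7. In the EGF family 5 of 22 were higher and 5 lower, with the ligand Tgfa going from 1210.3 ± 174 to 3514 ± 895 (log2 difference 1.52) and the receptor inhibitor Lrig3 from 2458 ± 404 to 510.0 ± 251 (log2 difference -2.37). Ephrins and their receptors were split at 7 higher and 8 lower of 19, with the ligand Efna4 going from 200.3 ± 38.9 to 927 ± 149 (log2 difference 2.19) and the receptors Epha2 and Epha7 from 899 ± 372 to 2934 ± 651 (log2 difference 1.71) and from 346 ± 90.1 to 33.4 ± 16.7 (log2 difference -3.56). Retinoic acid genes were also split (6 higher and 8 lower of 21, or 8 and 7 with equal totals). Those of retinol uptake and oxidation, Stra6, Rdh10 and Aldh1a3, went from 222 ± 87.5 to 4705 ± 1534 (log2 difference 4.41), from 1071 ± 120.0 to 7176 ± 1523 (log2 difference 2.72) and from 351 ± 98.6 to 3449 ± 1243 (log2 difference 3.28), and the retinol-binding Rbp2 from 1012 ± 365 to 47.5 ± 22.9 (log2 difference -4.58). Of 19 prostaglandin genes 9 were lower and 4 higher. The receptor Ptger3 went from 349.8 ± 74.8 to 20.9 ± 12.4 (log2 difference -4.20) and the transporter Slco2a1 from 3932 ± 1322 to 881 ± 249 (log2 difference -2.17), while the synthase Ptgds went from 1.49 ± 1.599 to 52.8 ± 40.8 (log2 difference 4.37).

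Blood-derived cells gave a mixed picture. Neutrophil genes were higher in 20 of 23 cases (median 3.93). S100a9, a subunit of calprotectin, had 0, 2.29, 12.2, 1.44 and 6.84 normalized counts in wild-type colon and 799.9, 5134, 889.8, 1185, 1761, 728 and 779 in tumours 1 to 7. Replicate 2 was the highest and all tumours lay above wild-type colon (log2 difference 8.35, SE 0.543, limma adjusted p = 5.07e-10). Trem1 and Mmp9 went from 10.4 ± 3.76 to 251 ± 165 (log2 difference 4.32) and from 62.2 ± 39.9 to 1863 ± 743 (log2 difference 5.0002). Ly6g, a surface marker used for mouse neutrophils, went against the list, from 7471 ± 2016 to 668 ± 372 (log2 difference -3.68). Its wild-type level stood beside S100a9 at 0 to 12.2 in the same libraries. Which cells gave the Ly6g reads in wild-type colon was not tested. Mast cell genes were higher in 13 of 16 cases (median 3.81). Mcpt1, a protease of mucosal mast cells, had 31.5, 38.8, 27.8, 46.0 and 55.8 and then 383, 653, 922, 3426, 1918, 1813 and 1506 in tumours 1 to 7, where the 3 females were the lowest (log2 difference 4.91, SE 0.543, limma adjusted p = 4.30e-07). Tpsb2, a tryptase, went from 11.2 ± 6.64 to 574 ± 415 (log2 difference 5.44) and Il1rl1, the receptor for interleukin-33, from 128 ± 38.6 to 2786 ± 1304 (log2 difference 4.34). Kit, shared with the interstitial cells of Cajal, was lower, from 1559.5 ± 147 to 447 ± 130.003 (log2 difference -1.84). Macrophage and dendritic cell genes were higher in 13 of 30 cases and lower in 7, or 15 and 2 in males alone and 12 and 4 without the 3 libraries highest in Rn45s. Arg1, an arginase of alternatively activated macrophages, went from 13.6 ± 6.51 to 910.2 ± 563 (log2 difference 5.93), and the complement gene C1qa from 1272 ± 346 to 2288 ± 352 (log2 difference 0.85). Ly6c2, a monocyte marker, went from 584 ± 56.0 to 144 ± 57.7 (log2 difference -2.11), and the dendritic cell genes Flt3, Xcr1, Clec9a and Cd209a were lower too.

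B cell genes were lower, and T cell genes were called in few cases. Of 21 B cell and plasma cell genes 20 were lower and 1 higher (median -3.22). Cr2, the complement receptor of B cells, had 79.2, 628, 346, 619 and 566 normalized counts in wild-type colon and 3.35 to 27.1 with a median of 15.1 in the tumours. Wild-type replicate 1 was by far the lowest of its group (log2 difference -4.95, SE 0.513, limma adjusted p = 1.77e-07). Ighd went from 1212 ± 709 to 27.6 ± 21.6 (log2 difference -5.45), and Sdc1, which epithelium also makes, rose from 7613 ± 1379 to 20646 ± 4526 (log2 difference 1.43). T cell and cytotoxic genes stood at 4 higher and 6 lower of 28, and which direction led depended on the scaling (6 and 3 with quantile normalization). Il17a, a cytokine of a subset of T cells, went from 0.684 ± 1.02 to 19.9 ± 11.6 (log2 difference 3.5996), and Cd2 from 114 ± 50.5 to 33.0 ± 14.3 (log2 difference -1.74). No MHC gene was higher and 10 of 24 were lower, or 5 without the 3 libraries highest in Rn45s. With pan-epithelial scaling 2 were higher and 6 lower, and in females alone 2 and 9. Those with the smallest p were H2-Ob, H2-Oa, H2-T3 and Ciita. Of 31 interferon-stimulated genes 5 were higher and 5 lower, in males alone 0 and 7, and in females alone 6 and 1. With equal totals or pan-epithelial scaling it was 6 and 1, without tumour replicate 2 it was 5 and 1, and without the 3 libraries highest in Rn45s 4 and 1. Without wild-type replicate 1 the count was 2 and 4, without replicate 2 it was 3 and 2, without replicate 3 it was 2 and 5, and without tumour replicate 3 it was 3 and 5. Usp18, an inhibitor of interferon signalling, had 117, 398, 99.2, 1151 and 1517 normalized counts in wild-type colon and 1317, 1934, 3034, 3318, 1465, 6701 and 2452 in tumours 1 to 7. The 3 wild-type females lay below all tumours, and the higher of the 2 wild-type males lay within their range (log2 difference 2.61, SE 0.65, limma adjusted p = 0.00247). Chemokines were higher in 11 of 31 cases and lower in 6. Those that attract neutrophils led, with Cxcl5 going from 63.5 ± 21.2 to 5152 ± 2242 (log2 difference 6.23), Cxcl3 from 0.456 ± 1.02 to 216 ± 86.2 (log2 difference 7.35) and Cxcl2 from 3.89 ± 3.30 to 1433 ± 1423 (log2 difference 7.78), whereas Ccl28, an epithelial attractant of plasma cells, went from 9386 ± 2533 to 783 ± 300.2 (log2 difference -3.58). Among cytokines and their receptors 17 of 31 were higher and 4 lower. Tnf went from 46.4 ± 45.4 to 667 ± 305 (log2 difference 4.05) and Il23a from 7.36 ± 2.93 to 216 ± 140.1 (log2 difference 4.53), and Il22ra2, a decoy receptor for interleukin-22, went from 390.2 ± 114 to 7.31 ± 4.397 (log2 difference -5.76).

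Genes of the muscle and nerve of the bowel wall were much lower in the tumours. Smooth muscle genes were lower in 22 of 24 cases and higher in none (median -3.52). Des, which encodes desmin, had 33229, 24555, 29269, 45003 and 27034 normalized counts in wild-type colon and 136 to 1128 with a median of 489.8 in the tumours. No tumour came near wild-type colon (log2 difference -6.21, SE 0.411, limma adjusted p = 6.50e-10). The summed level of the smooth muscle genes was 330246 to 464462 normalized counts in wild-type colon and 47372 to 58065 in the tumours. Of 26 enteric neuron and glia genes 24 were lower and none higher (median -4.14), for example Snap25, a protein of synaptic vesicle release, from 430.2 ± 103 to 5.87 ± 3.51 (log2 difference -6.12). Pacemaker cells of the gut, the interstitial cells of Cajal, were represented by 8 genes, 6 lower and 1 higher, with Etv1 going from 402 ± 101 to 49.3 ± 17.8 (log2 difference -3.06). What part the lower share of muscle and nerve RNA plays in the other differences was not tested. Fibroblast genes were split, with 7 of 25 higher and 10 lower, or 4 and 12 without the 3 libraries highest in Rn45s. Pdgfra, the receptor of mesenchymal cells, went from 2168 ± 703 to 4849 ± 1782 (log2 difference 1.19), whereas Rspo3, which encodes a Wnt-enhancing ligand of crypt stroma, had 379, 258, 245, 341 and 259.7 normalized counts in wild-type colon and 7.56 to 54.2 with a median of 25.5 in the tumours. No tumour overlapped wild-type colon for Rspo3 (log2 difference -3.68, SE 0.435, limma adjusted p = 8.96e-07). Collagens were split evenly (9 and 9 of 28), with Col18a1 going from 2059 ± 357 to 7175 ± 1293 (log2 difference 1.79) and Col8a2 from 193 ± 35.7 to 16.8 ± 18.2 (log2 difference -3.84). Proteases of the matrix rose more often than they fell, 22 against 6 of 35 (median 1.08) and 20 against 2 in males alone, among them Mmp14 from 4703 ± 521 to 18021 ± 1867 (log2 difference 1.95) and Adam8 from 101 ± 19.2 to 1572 ± 295 (log2 difference 3.95). Mmp17 went from 440.0 ± 47.4 to 70.1 ± 26.6 (log2 difference -2.71). Serpins, which inhibit proteases, were higher in 11 of 26 cases and lower in 4, or 3 and 2 in males alone. Serpinb11 went from 0.828 ± 0.788 to 1962 ± 765 (log2 difference 10.07) and Serpinb1a from 19650.5 ± 2083 to 7480.3 ± 1939.9 (log2 difference -1.49). Of 25 endothelial genes 8 were higher and none lower (median 0.12). That count was 5 and 0 in females alone and without the 3 libraries highest in Rn45s. In males alone it was 7 and 1, and without tumour replicate 2 it was 7 and 2 (median -0.07). Pecam1, Kdr and Tie1, which mark all endothelium, were not called. Prox1, a factor of lymphatic endothelium that some epithelial cells also make, had 53.6, 30.5, 61.1, 27.5 and 45.0 normalized counts in wild-type colon and 2518 to 9406 with a median of 6085 in the tumours (log2 difference 7.03, SE 0.34, limma adjusted p = 8.75e-12). Sox17, shared by endothelium and endoderm, went from 72.0 ± 8.91 to 2498 ± 1354 (log2 difference 4.86), and Angpt2, a vessel-destabilising ligand, from 162 ± 40.3 to 1609 ± 642 (log2 difference 3.32).

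The tumours were set directly against the 7 Apc tumours in the same fit. In that comparison 7.88% of all genes were higher and 8.76% lower in Apc/Tgif tumours, and 2065 of the 9284 genes of the first comparison (22.2%) were called there too. Both comparisons use the same 7 Apc/Tgif libraries, so the shared calls are given as a count alone, beside the 16.6% of all genes called there. Krt15 had 58.0 to 1311 normalized counts in Apc tumours, with a median of 114, below every Apc/Tgif tumour (log2 difference 6.73, SE 0.628, limma adjusted p = 1.75e-06). Serpinb11 (498 ± 351 in Apc tumours, log2 difference 2.20) and Pnliprp2, a lipase (2645 ± 1586, 2.38), which rose from 146 ± 92.9 to 12002 ± 6201 (log2 difference 6.33) over wild-type colon, were also higher. Dio1, a deiodinase of thyroid hormone, lay in Apc/Tgif tumours between the other groups: 3808 ± 745 in wild-type colon, 1818 ± 637 in Apc/Tgif tumours and 324 ± 107 in Apc tumours (log2 difference 2.43, SE 0.298, limma adjusted p = 2.87e-05). Notum, Mmp7, Wif1 and Lgr5 were not called in this comparison, with log2 differences of 0.48, 0.40, -0.20 and 0.04, and the SE of 0.331 for Notum leaves room for a difference. Several lists were lower in Apc/Tgif than in Apc tumours, to be read against the 8.76%. Examples are 18 of 25 goblet cell genes, 19 of 34 colonocyte genes, 15 of 39 conjugating enzymes, 17 of 31 glycolysis and hypoxia genes and 16 of 35 matrix proteases. Stromal and other lists were lower too: 12 of 28 collagens (3 higher), 10 of 25 fibroblast genes (0 higher) and 10 of 28 foetal-like genes (3 higher). So were 11 of 27 enteroendocrine genes (0 higher) and 9 of 22 small intestinal absorption genes (1 higher). Among interferon-stimulated genes 24 of 31 were higher in Apc/Tgif tumours than in Apc tumours and none was lower. Clca4a (14675 ± 8557 in Apc tumours against 751 ± 619) and Retnlb, an antimicrobial goblet cell peptide (1901 ± 1710.5 against 115 ± 107), were lower, with log2 differences of -4.47 and -3.70.

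The difference between tumour and wild-type colon was itself compared between the sexes. It differed for 628 genes (3.4%), but this count was 5 without wild-type replicate 4 and 1801 without tumour replicate 5, and 62 with pan-epithelial scaling and 3650 with weights for library quality. Leaving out wild-type replicate 1, 3 or 5 gave 124, 26 and 29, and leaving out tumour replicate 2, 4, 6 or 7 gave 315, 243, 235 and 278. With 2 wild-type males and 3 wild-type females it rests on few animals. Pdzd7, a scaffold of hair cell stereocilia, had 462, 412, 381, 11.6 and 25.9 normalized counts in wild-type colon, where the 3 females were high and the 2 males low, and 50.6 to 166 with a median of 96.3 in the tumours. The effect in males minus that in females was 5.03, SE 0.523, limma adjusted p = 4.79e-04. Dcxr, a xylulose reductase, had 1245, 1317, 1137, 2187 and 1834 in wild-type colon and 2053, 1926, 2177, 1275, 1419, 1443 and 1368 in tumours 1 to 7, so that females were low in wild-type colon and high among tumours (males minus females -1.28, SE 0.182, limma adjusted p = 0.00946). Mmgt1, a membrane protein complex subunit, had 2362, 1908, 2377, 1464 and 1375 and 1909, 1668, 1985, 2873, 2789, 2553 and 2801 and moved the opposite way (males minus females 1.21, SE 0.18, limma adjusted p = 0.00946).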

How the data were processed

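Per the labels' protocols, libraries were made from poly-A RNA and read from 1 end over 75 bases. The authors deposited 1 table of normalized counts, a signal in which each library's gene counts are divided by 1 factor. Salmon, DESeq2, GRCm38 and mm10 are named in the submitters' processing notes, while versions, annotation and strand use are not stated there. Low values were whole multiples of 1 read in only 75.8% to 85.0% of cases (tolerance 0.1 of a step, values under 25), so no count model was used. Differences were tested with limma (version 3.58.1, under R version 4.3.3) with its trend and robust options on log2(normalized count + 1) of 19 libraries, terms for group and sex, Benjamini-Hochberg over 18445 genes, two-sided, threshold 0.05. Sex differences used 1 mean per group and sex. Fold changes understate low genes. The steps were tested on simulated data.

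The 67 gene lists and their members were chosen with earlier results of these data known; 66 had a tested member. Named genes were Tgif1, Tgif2 and Apc, the 12 highest and 12 lowest called genes among those averaging 1000 normalized counts or more in groups without overlap, up to 4 called members per list by p and the strongest called member against its majority, the 3 smallest p for sex, the 6 highest and 6 lowest against Apc tumours, and the 10 most abundant and 8 most variable genes. Not every gene of this rule is printed, and Mki67, Top2a, Cdk1, Hoxb13, Hoxd13, Hoxd10, Muc2, Axin2, Epcam and members named without the rule were chosen after their values were seen. Predicted genes were not named, and some items are not reported here. Positions and promoters are from RefSeq (GRCm38.p6). Alternatives changed the pseudocount, filter, scaling, weights, trend, sex term, sexes and single libraries. The submitters' design text gives separate animals for the libraries.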

Additional observations from a re-analysis of the deposited data

Results flagged for a closer look

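Single libraries stood apart from their group for 33 gene and group pairs of 442 examined, by Dixon's criterion at the 95% level. Chance flags about 1 in 20 groups. Some genes examined, such as Mki67, Top2a and Cdk1, were chosen after their values were seen, and others for their spread among tumours. The number of flags therefore cannot be weighed against that rate. Normalized counts of the library that stood apart follow. Apc/Tgif tumour replicate 2 was highest for Cpe (667), Eef1a1 (483208), Lrig3 (1059.6), Pecam1 (3481), Tcf7 (3782), Tgif1 (654) and lowest for Cdk1 (424), Ciita (25.9), Dio1 (496), Foxa3 (1042), Mki67 (2032), Nrarp (326), Slc15a1 (61.8), Top2a (1671). Apc/Tgif tumour replicate 5 was highest for Cdkn2b (969.6), Col8a2 (57.3), Guca2b (1060.4), Rn45s (4063477), St6galnac4 (992) and lowest for Apc (4939), Serpinb11 (647), Slc30a2 (2076), Ugt2b35 (1894). Apc/Tgif tumour replicate 7 was lowest for Chrdl1 (16.4). Wild-type colon replicate 1 was highest for Defa22 (1.26) and lowest for Cr2 (79.2). Wild-type colon replicate 2 was highest for Cxcl3 (2.28) and lowest for Kit (1301). Wild-type colon replicate 3 was highest for Top2a (9249) and lowest for Dbp (298), Ly6g (4037). Wild-type colon replicate 5 was lowest for Krt4 (0), Mmp14 (3783). The wild-type values of Defa22, Cxcl3 and Krt4 lie at the floor. There 1 read is 1.26 normalized counts in replicate 1 and 1.14 in replicates 2 and 5.

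The difference between tumours and wild-type colon differed between the sexes, by limma's test of the effect in males minus that in females, for 5 of the genes named: Dcxr (-1.28 on the log2 scale), Hbb-bs (-5.0030 on the log2 scale), Mmgt1 (1.21 on the log2 scale), Pdzd7 (5.03 on the log2 scale) and Rbp2 (-1.85 on the log2 scale). These values rest on 2 wild-type males, and the count of such genes over the whole table changed with single libraries.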

How the results depend on the processing

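Over 26 other settings the count of higher genes ranged from 3744 to 6028, and that of lower genes from 3333 to 5483. Over the 25 of these that hold the Apc tumours, the count of genes also called against them ranged from 1658 to 2994. All were within 1.5 times the reported counts, and none of the 9284 called genes was called in the opposite direction in any setting. The count of genes that differed between the sexes was less stable: 378 with only the 12 libraries fitted, 62 with pan-epithelial scaling, 3650 with quality weights, 9 without the 3 libraries highest in Rn45s (an alternative chosen after seeing the data), and 5 to 1801 when 1 replicate was left out. Of the named genes, 206 of 223 were called, 19 lost a call in some setting, and 5 changed sign: in males alone Dcxr to -0.54, Hbb-bs to -0.33 and Pdzd7 to 2.64 and with quantile normalization Krt19 to 0.0097 and Krt8 to 0.27. The cause was not tested. No paired analysis was possible because the labels give the groups no shared replicate numbers. Depth limits values near 10 normalized counts. In simulated data with 17808 genes, the test recovered 54 of 100 genes made to change 2-fold and 88 of 100 made to change 4-fold, with 5.33% false calls. Far fewer genes were changed there than were called in the real data, and each value was drawn independently. The shares therefore do not give the recovery or the false calls of the real test.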

Other observations

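Among the genes with the highest normalized counts, which are not corrected for length, Lypd8, a surface protein that keeps bacteria off the colon wall, went from 425032 ± 66403 to 106060.3 ± 39410.4 (log2 difference -2.19), Sprr2a1 from 335825 ± 86499.6 to 49195 ± 21849 (log2 difference -2.99), and Pigr, which carries immunoglobulin A across the epithelium, from 191786 ± 31869 to 63695 ± 22411 (log2 difference -1.60). Dmbt1, a mucosal scavenger glycoprotein, went from 131753 ± 28327 to 48804 ± 29014 (log2 difference -1.59). The translation factors Eef1a1 and Eef2 rose from 220511 ± 16912 to 349999 ± 63672 (log2 difference 0.67) and from 85637 ± 19134 to 140838 ± 24556 (log2 difference 0.74), and the chaperone Hsp90ab1 from 57089 ± 13033 to 90468 ± 11163 (log2 difference 0.69). Metal handling genes were split at 8 higher and 7 lower of 25, or 8 and 9 with only the 12 libraries fitted: the zinc exporter Slc30a2 had 35.4, 46.8, 17.4, 21.6 and 19.4 normalized counts in wild-type colon and 2076 to 5561 with a median of 5203 in the tumours, and the manganese exporter Slc30a10 had 1666, 772, 2161, 723 and 457 and 0 to 9.84 with a median of 1.09. The groups of both genes lay apart, in opposite directions (log2 difference 7.44, SE 0.291, limma adjusted p = 5.15e-13 for Slc30a2, and log2 difference -8.84, SE 0.72, limma adjusted p = 8.24e-09 for Slc30a10). Unfolded protein response genes were called evenly (5 and 5 of 29, or 8 and 3 with equal totals), and S100 genes 3 higher and 4 lower of 14, with S100a11 going from 5307 ± 879.9 to 18999 ± 5136 (log2 difference 1.80). Adcy8, a neuronal adenylate cyclase, had 11.6, 7.01, 16.2, 4.95 and 7.85 normalized counts in wild-type colon and 5099 to 6747 with a median of 5674 in the tumours (log2 difference 9.28, SE 0.185, limma adjusted p = 2.14e-17). The 7 tumours lay close together, far above wild-type colon.

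Immediate early genes, which respond to handling as well as to growth signals, were higher in 9 of 20 cases and lower in 2, or 4 and 2 in females alone, with Jun going from 3332 ± 910.4 to 13901 ± 2566 (log2 difference 2.03) and Fos from 5703 ± 2102 to 2665 ± 925 (log2 difference -1.21). Clock genes were lower in 7 of 19 cases and higher in 2, with 2 lower in females alone and 12 in males alone. Dbp, a clock output gene, had 6835, 4994, 298, 3723 and 6079.8 normalized counts in wild-type colon, where replicate 3 lay far below the other 4 and within the tumours' 224 to 789.6 with a median of 254 (log2 difference -3.29, SE 0.703, limma adjusted p = 6.78e-04). Haemoglobin and red cell genes were higher in 4 of 6 cases, in 2 without wild-type replicate 1, 2 or 3 or without tumour replicate 1, 2 or 3, and in none in males alone. Hbb-bs, a beta-globin, had 753, 283, 444, 10704 and 1209.8 and then 11318, 15572, 9023, 6295, 3649, 1889.7 and 1558 in tumours 1 to 7, and wild-type replicate 4 alone was high (log2 difference 2.28, SE 0.817, limma adjusted p = 0.026), and in males alone the log2 difference was -0.33. Of 14 listed skeletal muscle genes 9 passed the filter, and the calls were split (3 higher and 3 lower). Their summed level was lower in every tumour, at 1291 to 2065 normalized counts against 9260 to 16032 in wild-type colon. Ckm, a muscle creatine kinase, had 445, 206, 398, 473 and 294 normalized counts in wild-type colon and 0 to 2.14 with a median of 1.34 in the tumours (log2 difference -7.58, SE 0.465, limma adjusted p = 1.96e-10), and Acta1, skeletal actin, rose from 185 ± 101 to 741 ± 194 (log2 difference 2.07). Adipocyte and mesothelial genes were lower in 7 of 10 cases, for example Upk3b from 139 ± 84.1 to 0.474 ± 0.606 (log2 difference -6.40). Of 16 listed squamous epithelium genes 10 passed the filter, Krt4 among them through the tumours alone. Of these 10 genes 6 were higher and none lower, and a member that passed in this way could hardly be called lower. Their summed level was 222 to 323 normalized counts in wild-type colon and 1326 to 2921 in the tumours. Krt4 went from 1.12 ± 0.664 to 549 ± 303 (log2 difference 7.83) and Dsg3 from 7.15 ± 1.98 to 279 ± 256 (log2 difference 4.52). Of 15 listed pancreas genes only 3 passed the filter. All 3 were lower, or 1 in females alone, with Cela1 going from 9186 ± 1685 to 2852 ± 665 (log2 difference -1.74).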
